A study of Gorilla gorilla gorilla with 13 samples.

Results

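The genes described here are 70 genes of synaptic vesicles and of vesicle release, out of the 18137 genes of the count table on the human build hg38. They were chosen by symbol alone, as every synaptotagmin, DOC2, SV2, SNAP, syntaxin, syntaxin-binding, VAMP, RIMS, UNC13 and complexin gene of the table together with SYN2 and SYN3. They were followed through 13 bulk RNA-seq libraries of cells sorted by fluorescence from cerebral organoids, free-floating stem cell cultures that form brain-like tissue. The organoids were grown from GC1, an induced pluripotent stem cell line of a gorilla (Gorilla gorilla gorilla), carried no genetic change or drug treatment in the labels, and were collected at week 8 within 3 days. Of the libraries, 4 were labelled apical radial glia (aRG), 4 basal radial glia (bRG), 3 basal intermediate progenitor cells (bIP) and 2 BCL11B+ neurons (N). Radial glia are stem cells that give rise to cortical neurons, and basal intermediate progenitors are their committed, dividing daughters. All libraries came from 1 cell line, each from the RNA of 10000 cells, and the labels do not say whether libraries sharing a label came from separate cultures. Libraries are named by their number in the labels, except one of the N libraries, named the unnumbered neuron library.

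A nerve terminal stores transmitter in vesicles and releases it when calcium enters. Vesicle SNAREs (the VAMP proteins) zip together with plasma membrane SNAREs (syntaxins and SNAP proteins) to fuse the membranes, and syntaxin-binding proteins, UNC13 and RIM proteins prepare that fusion. Complexins clamp and promote it, synaptotagmins read the calcium signal, and synapsins and SV2 proteins belong to the vesicle itself. Other members of the same families work in the Golgi, endosomes and plasma membrane of every cell. Young cortical neurons express the neuronal members before mature synapses form.

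Total counts per library ranged from 5464721 to 12524938, and levels are CPM, the reads of a gene scaled to a common library size. Markers of radial glia (PAX6, SOX2, SLC1A3, HES1 and VIM) summed to 1691 to 3073 CPM in aRG and bRG and to 70.9 to 97.2 CPM in bIP and N. The neuronal markers TUBB3, MAPT, RBFOX3, BCL11B and TBR1 summed to 116 to 247 CPM in aRG and bRG. Their sum was 856 to 1225 CPM in the bIP libraries and 1184 to 1755 CPM in the N libraries. Of these markers, TUBB3 was low, at 1.08 to 15.2 CPM over all libraries, and was not called among the populations (edgeR adjusted p = 0.271). The libraries labelled bIP went against their label on the sum of the markers of intermediate progenitors (EOMES, PPP1R17 and NEUROG2). It was 70.8 to 222 CPM there, 379 to 563 in bRG, 122 to 334 in aRG and 59.9 to 82.5 in N. The markers differed: EOMES measured 31.0 to 127 CPM in bIP, 260 to 460 in bRG and 5.78 to 6.74 in N. PPP1R17 was not called among the populations (edgeR adjusted p = 0.898). The bIP libraries also held the Cajal-Retzius markers RELN, TP73 and LHX5, of early-born neurons, at 1131 to 3264 CPM, against 36.7 to 87.5 in the other 10 libraries. Library 3 of bRG stood apart, with the fewest detected genes (16534) and a scaling factor of 0.804. No listed marker was at 0 in all libraries.

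Transcripts of the release machinery were more abundant in the libraries labelled bIP and N than in both kinds of radial glia. The 70 genes together took 0.304% to 0.368% of the counts in aRG and 0.313% to 0.393% in bRG. They took 0.583% to 0.615% in bIP and 0.613% to 0.651% in N, with no overlap between radial glia and the other libraries. In bulk RNA, fewer cells of a type and less RNA per cell cannot be told apart. The neuronal and radial glial marker sums above moved with this difference, and their part in it was not tested.

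Of the 70 genes, 69 passed the filter on low counts and entered the test, while CPLX3 had no read in any library. Differences among the 4 populations were called for 32 of the 69 by edgeR's quasi-likelihood test (adjusted p under 0.05), 46.4% of them, against 22.5% of all 16804 genes tested. Between bIP and aRG, 25 of the 69 were higher in bIP and 5 lower, against 8.47% and 9.98% of all genes. The median log2 fold change was 0.61 over the members and -0.035 over all genes. Between bIP and bRG, 21 were higher and 5 lower, against 8.25% and 8.44% of all genes (medians 0.61 and -0.091). In N, 25 were higher and 5 lower than in bRG, against 10.6% and 9.13% of all genes (medians 0.59 and -0.085). N held 28 higher and 7 lower than aRG, against 10.4% and 9.37% of all genes (medians 0.57 and -0.053). These 4 comparisons share libraries, so their counts are not independent. The lower calls rested on few libraries: N against aRG had 2 lower calls in place of 7 without N library 1, and 2 without the unnumbered neuron library. In bIP against aRG the lower calls went from 5 to 2 without bIP library 1 and to 2 without bIP library 3. In bIP against bRG the lower calls went from 5 to 2 without bIP library 1, to 3 without bIP library 2 and to 3 without bIP library 3. In N against bRG they went from 5 to 2 without N library 1 and to 3 without the unnumbered neuron library.

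The direction differed between members. Over those 4 comparisons, 20 members were called higher in all (29% of the 69, against 5.44% of all genes tested) and 4 lower in all (5.8%, against 5.17%). Another 9 were higher in 1 to 3 of them (13%, against 8.96%) and 5 lower in 1 to 3 (7.25%, against 9.46%). Of the members 31 were called in none (44.9%, against 71% of all genes), and 0 were called in both directions. The shares called lower were thus near those over all genes. Of the 20, 15 kept all 4 calls in every alternative, leaving out each library included, among them SYT1, SYT3, SYT4, SYT5, SYT7, SYT13, SYT16, SYN2, SYN3, SV2A, SNAP25, STX1A, UNC13A and SNAP91. For 21 members (30.4%) every bIP and N library lay above every aRG and bRG library, against 8.68% of all genes tested. For 4 members, STX16, STXBP3, SYT10 and VAMP1, every bIP and N library lay below them (5.8% of the members, against 7.39% of all genes).

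**Figure D1:**
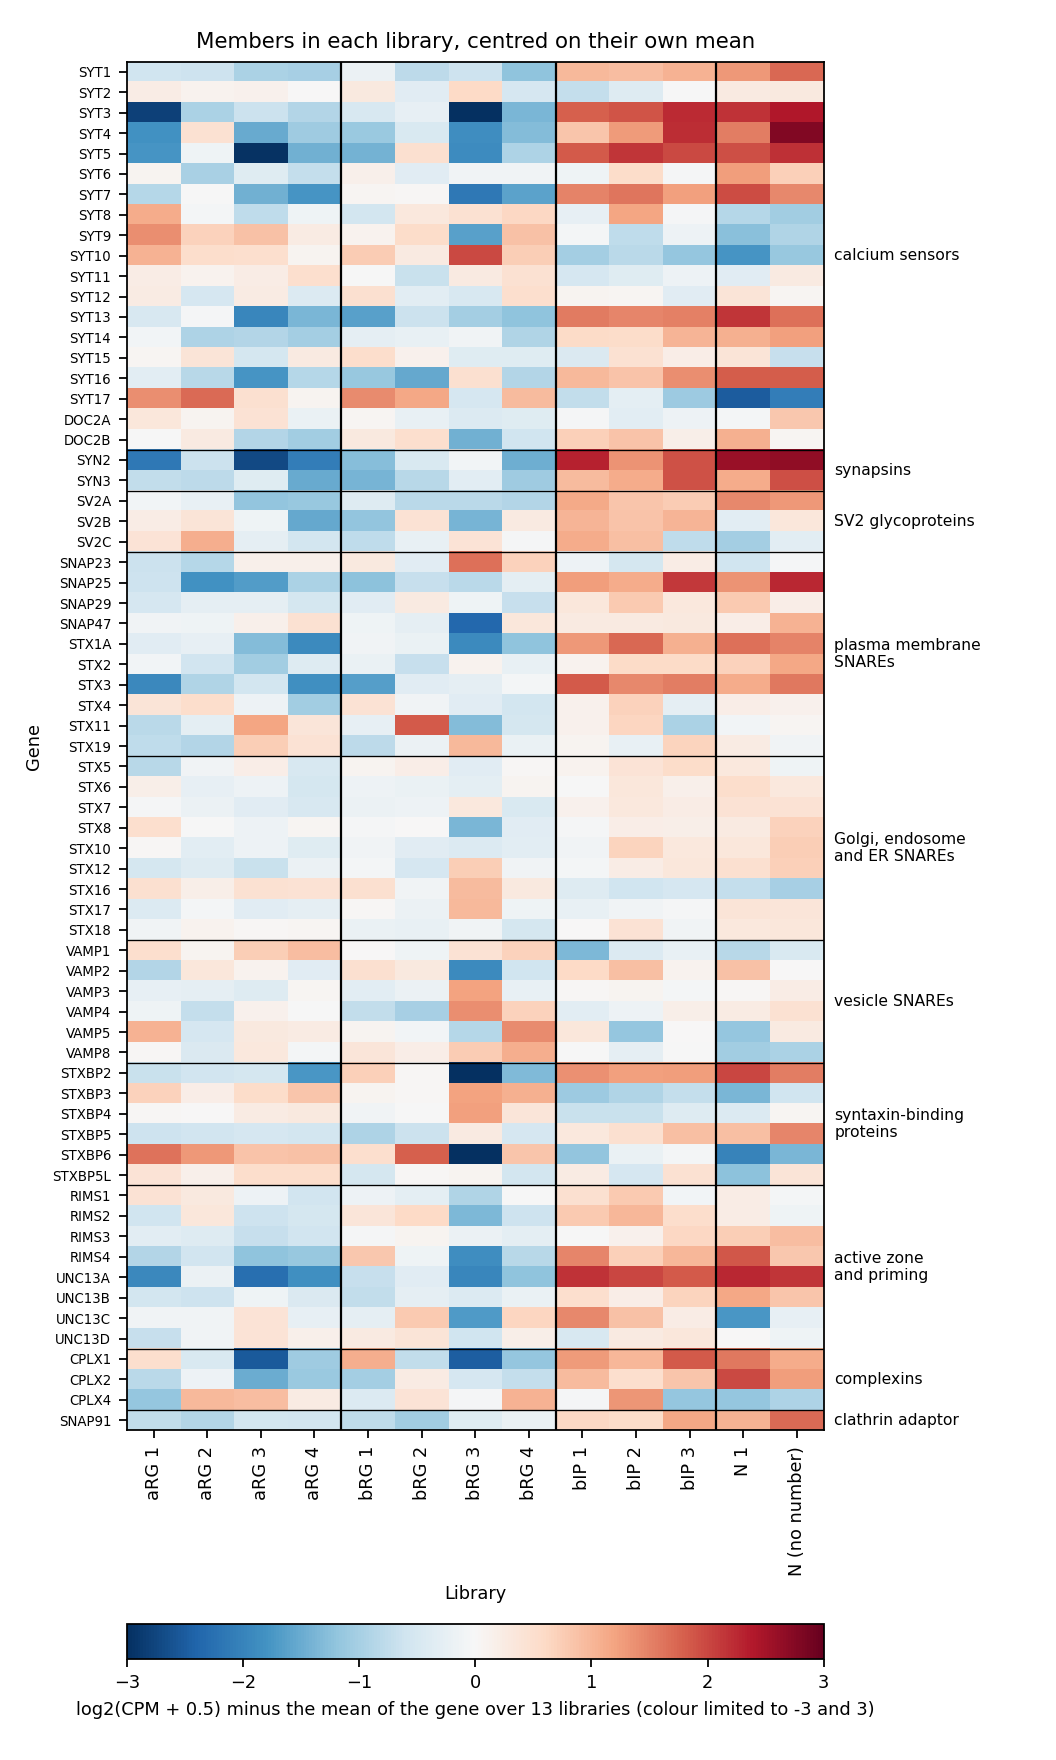
Level of 67 members with reads in each of the 13 libraries (columns), as log2(CPM + 0.5) minus the mean of each gene over the libraries; genes (rows) are grouped by role, black lines separate populations and roles, and red is above and blue below the mean of the gene. Red cells gather in the bIP and N columns for the members called higher in all 4 comparisons with radial glia, SYT17 and STX16 run the other way, and bRG library 3 differs from its neighbours in several rows.

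SNAP25, the plasma membrane SNARE of neurons, measured 34.0, 14.4, 16.0 and 26.9 CPM in aRG and 21.9, 32.0, 29.7 and 42.9 CPM in bRG. In bIP it stood at 126, 115 and 229 CPM, and in N at 134 and 252 CPM. Radial glia did not overlap the other libraries, but bIP and N overlapped each other. Its log2 fold change was 3.08 in N against aRG (SE 0.383, edgeR adjusted p = 1.29e-05).

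STX1A, a syntaxin of the presynaptic membrane, measured 47.7, 50.7, 24.2 and 15.8 CPM in aRG, 56.7, 52.5, 15.8 and 25.8 CPM in bRG, 150.0, 202 and 128 CPM in bIP and 192 and 170.2 CPM in N. Its lowest bIP library was above its highest radial glia library, and within aRG and bRG libraries 1 and 2 were above libraries 3 and 4. The log2 fold change in N against aRG was 2.39 (SE 0.454, edgeR adjusted p = 0.000833). STX3, a syntaxin known from dendrites and ribbon synapses, measured 5.78, 12.4, 16.1 and 6.29 CPM in aRG, 7.18, 18.7, 19.7 and 22.6 CPM in bRG, 86.7, 65.4 and 69.7 CPM in bIP and 52.1 and 72.5 CPM in N, with no overlap between radial glia and the rest. Its log2 fold change was 2.86 in bIP against aRG (SE 0.401, edgeR adjusted p = 4.63e-05). Its call in N against bRG was lost without the unnumbered neuron library (edgeR adjusted p = 0.0685).

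Of the 11 plasma membrane SNAREs, 5 differed among populations, against 22.5% of all genes tested. In bIP against aRG, where 8.47% of all genes were higher and 9.98% lower, 5 of the 11 were higher and 0 lower. Besides SNAP25, STX1A and STX3, these were SNAP29 (log2 fold change 0.89, edgeR adjusted p = 0.0294) and STX2 (0.92, edgeR adjusted p = 0.0226), which both act in other membrane traffic too. Both bIP calls were lost when any of several single libraries was left out, with STX2 at an adjusted p of up to 0.0921 and SNAP29 of up to 0.163 in edgeR. The widely expressed SNAP23 and STX4 were called in none of the 6 comparisons. SNAP23 measured 14.1, 12.0, 24.9 and 24.9 CPM in aRG, 27.3, 17.5, 70.5 and 36.2 CPM in bRG, 19.9, 15.4 and 26.1 CPM in bIP and 14.6 and 21.6 CPM in N, so only bRG library 3 stood out. STX4 lay between 9.59 and 33.1 CPM over all libraries, and its population ranges overlapped.

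**Figure D2:**
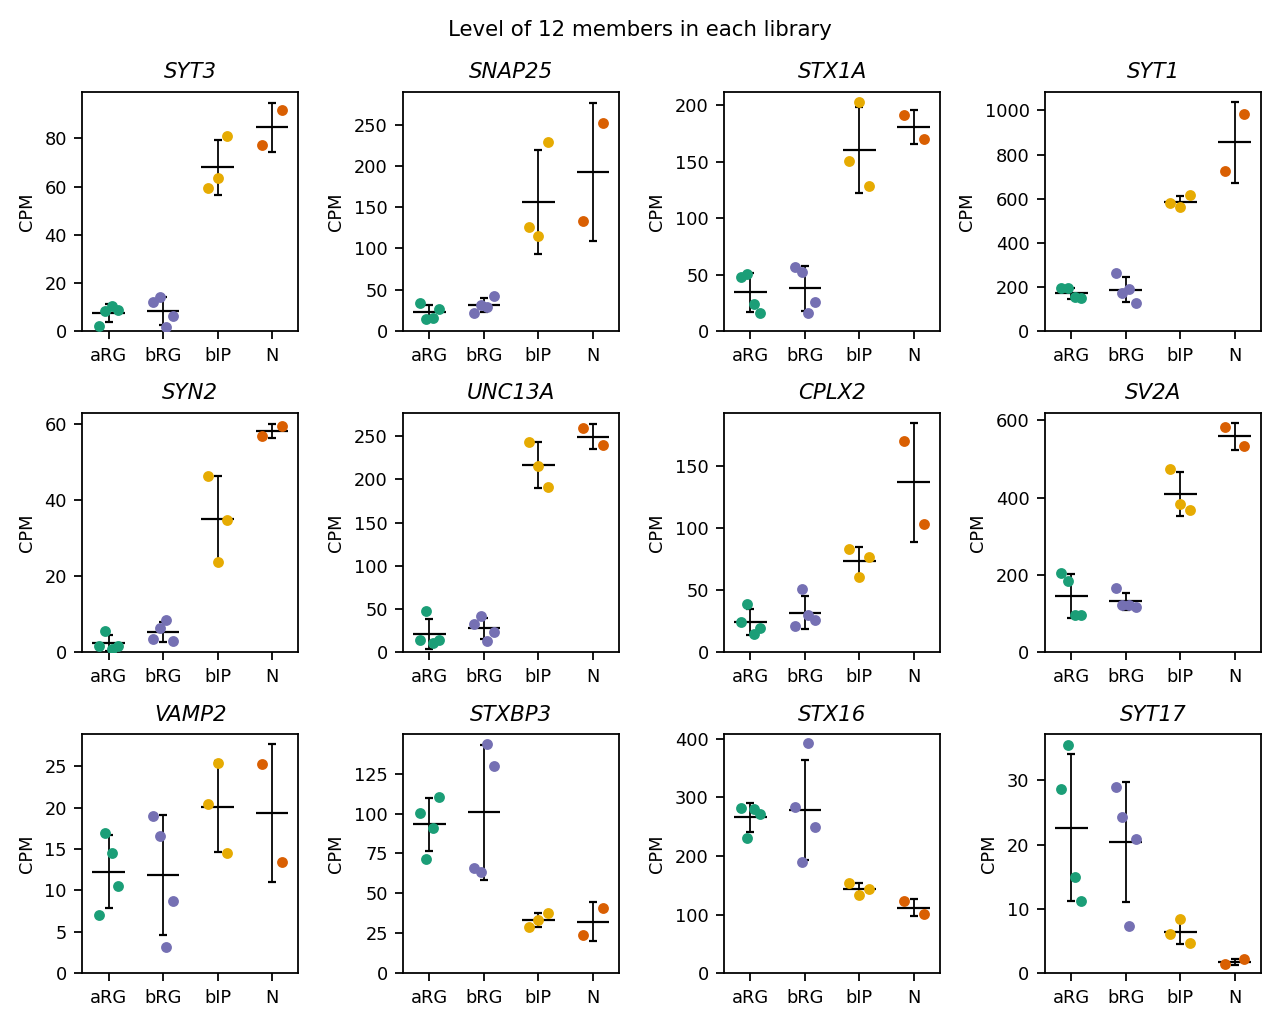
CPM (linear axis from 0) of 12 members in each library (points) by population, with the mean (horizontal line) and 1 SD (bars; n = 4, 4, 3 and 2). SYT3, SNAP25, STX1A, SYT1, SYN2, UNC13A, CPLX2 and SV2A are higher in every bIP and N library than in any radial glia library, VAMP2 overlaps in all populations, and STXBP3 and STX16 are lower in every bIP and N library.

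Of the 6 vesicle SNAREs, 1 differed among populations and 0 were called higher in bIP or N against radial glia. Over all genes tested 22.5% differed, and 8.25% to 10.6% were higher in each of those comparisons, so for 6 genes these counts lie near the background. No test compared this group with the other SNAREs. VAMP2, the main vesicle SNARE of cortical synapses, measured 7.05, 17.0, 14.6 and 10.5 CPM in aRG and 19.0, 16.6, 3.18 and 8.76 CPM in bRG. It measured 20.5, 25.4 and 14.5 CPM in bIP and 25.2 and 13.4 CPM in N. All populations overlapped, and the log2 fold change in N against aRG was 0.65 with a 95% interval of -0.51 to 1.81, which includes both no change and a 2-fold difference. VAMP3, its widely expressed relative, measured 36.1 to 55.6 CPM in 12 libraries and 110.1 CPM in bRG library 3, with no call. VAMP4, of the trans-Golgi network, lay between 14.5 and 47.7 CPM in 12 libraries and at 77.9 CPM in bRG library 3, also with no call. VAMP1, another synaptic vesicle SNARE, was called lower in bIP and N against aRG and not against bRG: 45.5, 33.5, 53.3 and 61.2 CPM in aRG, 31.8, 28.9, 43.1 and 51.3 CPM in bRG, 12.1, 23.9 and 27.3 CPM in bIP and 17.5 and 23.1 CPM in N. The lowest radial glia library was above the highest bIP or N library, while aRG overlapped bRG and bIP overlapped N. Its log2 fold change in N against aRG was -1.25 (SE 0.390, edgeR adjusted p = 0.03). In bIP against aRG it was -1.19 (SE 0.335, edgeR adjusted p = 0.017), lost without aRG library 4 (0.0506) or bIP library 1 (0.107). The N call was lost without aRG library 3 (0.0608), aRG library 4 (0.0542), N library 1 (0.234) or the unnumbered neuron library (0.105), all edgeR adjusted p. VAMP1 overlaps TAPBPL in the gorilla RefSeq annotation, and reads of overlapping genes cannot be told apart where strand use is not stated.

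Each neuronal gene was also set against its widely expressed relative within a library. The log2 ratio of SNAP25 to SNAP23 lay between -1.25 and 1.27 in radial glia, between 2.67 and 3.13 in bIP and between 3.20 and 3.54 in N. That of STX1A to STX4 lay between -0.011 and 1.46 in radial glia, 2.61 and 2.94 in bIP and 2.93 and 3.03 in N. Both ratios separated radial glia from bIP and N without overlap. The ratio of VAMP2 to VAMP3 did not, at -2.49 to -1.20 in aRG, -5.11 to -1.0 in bRG, -1.66 to -0.98 in bIP and -2.05 to -0.94 in N. Each ratio is compared between libraries only, since read counts of genes of different length do not give their relative levels.

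**Figure D3:**
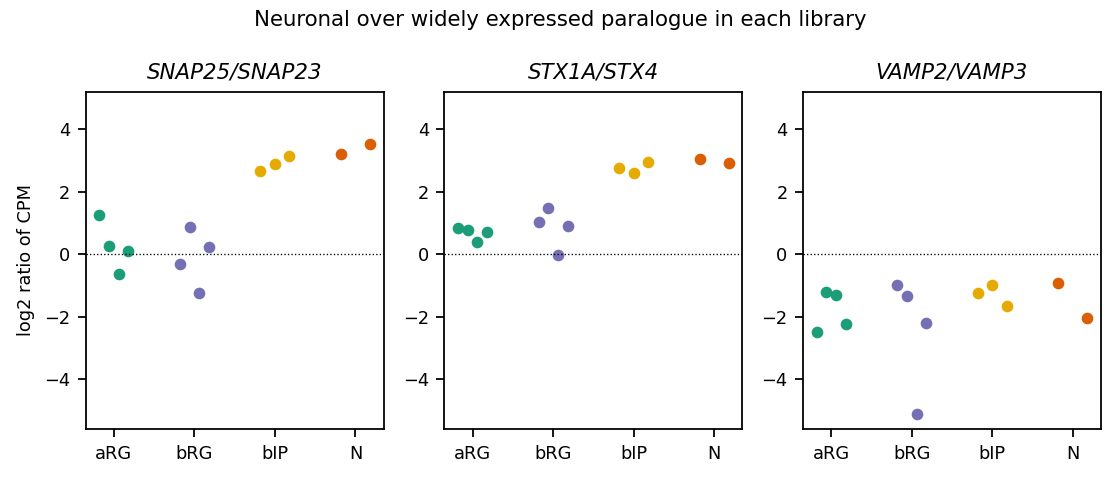
Log2 ratio of CPM of 3 pairs of relatives in each library (points) by population, the dotted line marking equal CPM. SNAP25/SNAP23 and STX1A/STX4 lie at 2.61 or above in all bIP and N libraries and at 1.46 or below in radial glia, while VAMP2/VAMP3 overlaps, with bRG library 3 lowest at -5.11.

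Among the 7 syntaxin-binding proteins, calls went in both directions. In N against aRG, 3 were higher and 2 lower, against 10.4% and 9.37% of all genes. No test compared this group with all genes. STXBP5 (tomosyn), which competes with vesicle SNAREs, measured 38.7, 40.1, 41.7 and 40.5 CPM in aRG, 31.3, 37.8, 71.7 and 41.9 CPM in bRG, 74.8, 84.0 and 113 CPM in bIP and 112 and 166 CPM in N, a log2 fold change of 1.79 in N against aRG (SE 0.306, edgeR adjusted p = 0.000321). STXBP2, a syntaxin-binding protein known from secretion in blood and epithelial cells, was at 1.65 to 4.50 CPM in aRG and 20.2 and 28.1 CPM in N (log2 fold change 2.75, edgeR adjusted p = 0.013), a call lost without N library 1 (0.0933).

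STXBP3, a syntaxin-binding protein of general membrane traffic, was lower: 100.3, 71.2, 91.0 and 110.3 CPM in aRG, 66.0, 63.2, 144 and 129.8 CPM in bRG, 28.8, 33.2 and 37.7 CPM in bIP, and 23.8 and 41.0 CPM in N. No bIP or N library reached the lowest radial glia library. Its log2 fold change was -1.49 in bIP against aRG (SE 0.325, edgeR adjusted p = 0.00296) and -1.52 in N against aRG (SE 0.380, edgeR adjusted p = 0.00754). Without N library 1 the N calls were lost against aRG (edgeR adjusted p = 0.144) and bRG (0.106). STXBP6 (amisyn) was at 12.0 to 20.6 CPM in aRG and 1.23 and 2.15 CPM in N, a call that was lost without aRG library 1 (edgeR adjusted p = 0.0545), N library 1 (0.2) or the unnumbered neuron library (0.125). STXBP4 was called lower only in bIP against bRG (log2 fold change -1.04, edgeR adjusted p = 0.0209). That call was lost without bIP library 1 (0.0869) or bIP library 2 (0.0888). STXBP5L was not called, with 10.9 to 23.8 CPM in radial glia, 11.2 to 22.6 in bIP and 6.62 and 21.5 in N.

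Of the 8 active zone and priming genes, 4 differed among populations, against 22.5% of all genes tested. N against aRG held 4 higher and 0 lower, against 10.4% and 9.37% of all genes. UNC13A, which primes vesicles for fusion, measured 13.6, 47.4, 10.7 and 14.5 CPM in aRG and 33.0, 41.8, 13.3 and 22.9 CPM in bRG. It measured 244, 215 and 191 CPM in bIP and 259.8 and 239 CPM in N. Every bIP and N library lay above every radial glia library, including aRG library 2, which stood above the rest of its population. The log2 fold change of UNC13A was 3.54 in N against aRG (SE 0.478, edgeR adjusted p = 3.1e-05) and 3.33 in bIP against aRG (SE 0.450, edgeR adjusted p = 3.12e-05).

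UNC13B, another priming factor of the brain, measured 80.4, 76.9, 108 and 87.6 CPM in aRG, 71.1, 98.4, 89.4 and 104 CPM in bRG, 167, 137 and 188 CPM in bIP and 266 and 212 CPM in N (N against aRG 1.44, SE 0.243, edgeR adjusted p = 0.000289). Its bIP against bRG call was lost without bIP library 3 (edgeR adjusted p = 0.0633). UNC13D, which primes granules in blood cells, lay at 3.79 to 8.71 CPM in all libraries and was not called. RIMS1 and RIMS2, the large scaffolds that tie vesicles to calcium channels, were not called either: RIMS1 lay at 16.7 to 54.6 CPM and RIMS2 at 10.0 to 53.0 CPM over all libraries, with overlap. Of the short RIM genes, RIMS3 measured 48.6, 46.4, 37.8 and 40.6 CPM in aRG, 59.0, 64.6, 53.9 and 49.7 CPM in bRG, 60.3, 66.6 and 93.3 CPM in bIP and 103 and 116 CPM in N, with bIP and bRG overlapping (N against aRG 1.33, SE 0.254, edgeR adjusted p = 0.000835).

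CPLX2, a complexin of forebrain terminals, measured 24.4, 38.7, 15.0 and 19.6 CPM in aRG, 20.8, 51.3, 29.8 and 25.9 CPM in bRG, 83.0, 60.5 and 77.1 CPM in bIP and 171 and 103 CPM in N. Every bIP and N library lay above every radial glia library, of which bRG library 2 came closest, while aRG and bRG overlapped. Its log2 fold change was 2.49 in N against aRG (SE 0.379, edgeR adjusted p = 0.000103), and its bIP against bRG call (edgeR adjusted p = 0.022) was lost without any 1 of bRG library 1 (0.0642), bRG library 4 (0.063), bIP library 1 (0.0873) or bIP library 3 (0.0657). CPLX1, another complexin of neurons, had few reads, at 4.34, 2.00, 0.0957 and 1.13 CPM in aRG, 6.84, 1.56, 0.118 and 1.05 CPM in bRG, 7.76, 6.36 and 11.9 CPM in bIP and 9.80 and 6.90 CPM in N. Its log2 fold change of 2.19 in N against aRG had a 95% interval of 0.09 to 4.29 and was not called (edgeR adjusted p = 0.146). CPLX4, a complexin of the retina, lay at 0 to 2.33 CPM.

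Both synapsins of the table, which tether vesicles to each other, were higher. SYN2 measured 1.63, 5.57, 0.957 and 1.75 CPM in aRG and 3.42, 6.45, 8.49 and 2.95 CPM in bRG. In bIP it stood at 46.4, 23.6 and 34.9 CPM and in N at 56.9 and 59.5 CPM, so that the highest radial glia library lay below the lowest bIP library. At 4.57 in N against aRG (SE 0.562, edgeR adjusted p = 1.17e-05), SYN2 had the largest positive log2 fold change of the 69 members in that comparison. SYN3 measured 10.3, 9.99, 13.6 and 5.88 CPM in aRG, 6.32, 9.57, 14.0 and 8.19 CPM in bRG, 34.3, 38.4 and 67.1 CPM in bIP and 38.6 and 68.1 CPM in N (N against aRG 2.42, SE 0.404, edgeR adjusted p = 0.000253). SYN2 overlaps TIMP4 and SYN3 overlaps TIMP3 in RefSeq, and their reads cannot be told apart here. The same limit holds for all 16 members that overlap a protein-coding gene. Among these are SNAP23 (LRRC57), SNAP29 (PI4KA), RIMS3 (NFYC), RIMS1 and SYT16.

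Of the 3 SV2 glycoproteins of the vesicle membrane, 1 was called among the 4 populations, against 22.5% of all genes tested. SV2A, the form found in most synapses, measured 204, 185, 95.3 and 97.1 CPM in aRG, 165, 123, 123 and 116 CPM in bRG, 474, 385 and 367 CPM in bIP and 584 and 535 CPM in N. It separated radial glia from the rest and had a log2 fold change of 1.94 in N against aRG (SE 0.300, edgeR adjusted p = 0.000117). SV2B, at 3.92 to 16.8 CPM in radial glia, 22.4 to 25.1 in bIP and 9.68 and 15.7 in N, and SV2C, at 8.20 to 30.8, 8.18 to 31.1 and 6.74 to 11.2 CPM, were called in no comparison.

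Of the 19 synaptotagmins and DOC2 proteins, 11 differed among populations, against 22.5% of all genes tested. N against aRG held 9 higher, 3 lower and 7 not called, where 10.4% of all genes were higher and 9.37% lower. SYT1, the fast calcium sensor of forebrain release, measured 194, 194, 153 and 149 CPM in aRG, 262, 171, 192 and 128 CPM in bRG, 579.6, 564 and 615 CPM in bIP and 725 and 985 CPM in N. Both N libraries lay above the bIP libraries and these above all radial glia libraries, while aRG and bRG overlapped, and the log2 fold change in N against aRG was 2.31 (SE 0.267, edgeR adjusted p = 6.05e-06). SYT7, the slower sensor with high calcium affinity, measured 5.54 to 27.2 CPM in radial glia, 61.5 to 80.5 in bIP and 71.1 and 102 in N (N against aRG 2.62, SE 0.536, edgeR adjusted p = 0.00158).

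SYT3, SYT4 and SYT5 had larger fold changes than SYT1 in N against aRG, with no test of that difference. SYT3 measured 1.99, 8.42, 10.6 and 8.87 CPM in aRG, 12.0, 14.2, 1.53 and 6.19 CPM in bRG, 59.6, 63.4 and 80.8 CPM in bIP, and 77.3 and 91.7 CPM in N (N against aRG 3.48, SE 0.579, edgeR adjusted p = 0.000246). SYT5 went from 2.01 to 27.0 CPM in radial glia to 69.9 to 86.2 in bIP and 74.4 and 89.7 in N (3.39, edgeR adjusted p = 0.000616). SYT4, which sits on dense-core vesicles, measured 13.7 to 70.2 CPM in radial glia, 91.4, 124 and 237 CPM in bIP and 149 and 351 CPM in N (2.99, edgeR adjusted p = 0.00055). None of the 3 overlapped between radial glia and the other libraries. SYT13, a synaptotagmin that does not bind calcium, measured 12.8, 17.6, 4.31 and 6.70 CPM in aRG, 5.47, 11.3, 8.72 and 7.52 CPM in bRG, 54.2, 51.0 and 52.9 CPM in bIP and 82.0 and 58.4 CPM in N (N against aRG 2.77, SE 0.429, edgeR adjusted p = 0.000119). SYT14 and SYT16, of the same kind, were higher by 1.85 and 2.69 on the log2 scale (edgeR adjusted p of 0.000262 and 0.000235).

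SYT17, SYT10 and SYT9 were the synaptotagmins called lower in N against aRG. SYT17 measured 28.7, 35.5, 14.9 and 11.2 CPM in aRG, 29.1, 24.4, 7.31 and 20.8 CPM in bRG, 6.12, 8.48 and 4.67 CPM in bIP, and 1.47 and 2.15 CPM in N. Both N libraries were lowest, and the bIP libraries reached into the range of bRG library 3. Its log2 fold change was -3.62 in N against aRG (SE 0.668, edgeR adjusted p = 0.000639) and -1.81 in bIP against aRG (edgeR adjusted p = 0.0159), the latter lost without aRG library 2 (0.0554), bIP library 1 (0.0658) or bIP library 3 (0.0793). SYT10 was low everywhere, at 2.16 to 9.55 CPM in radial glia and 0.245 to 0.954 CPM in bIP and N. It was called lower in all 4 comparisons, and in each of them some single library ended the call. SYT9, at 4.74 to 11.2 CPM in aRG and 1.35 and 1.87 CPM in N, was lower at an edgeR adjusted p of 0.0471, a call lost without any of 5 libraries. SYT11, a synaptotagmin that does not bind calcium and is widely expressed in the brain, measured 339.6 to 766 CPM in radial glia, 376 to 481 in bIP and 422 and 644 in N, with overlap and no call (N against aRG -0.29, 95% interval -0.92 to 0.34).

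**Figure D4:**
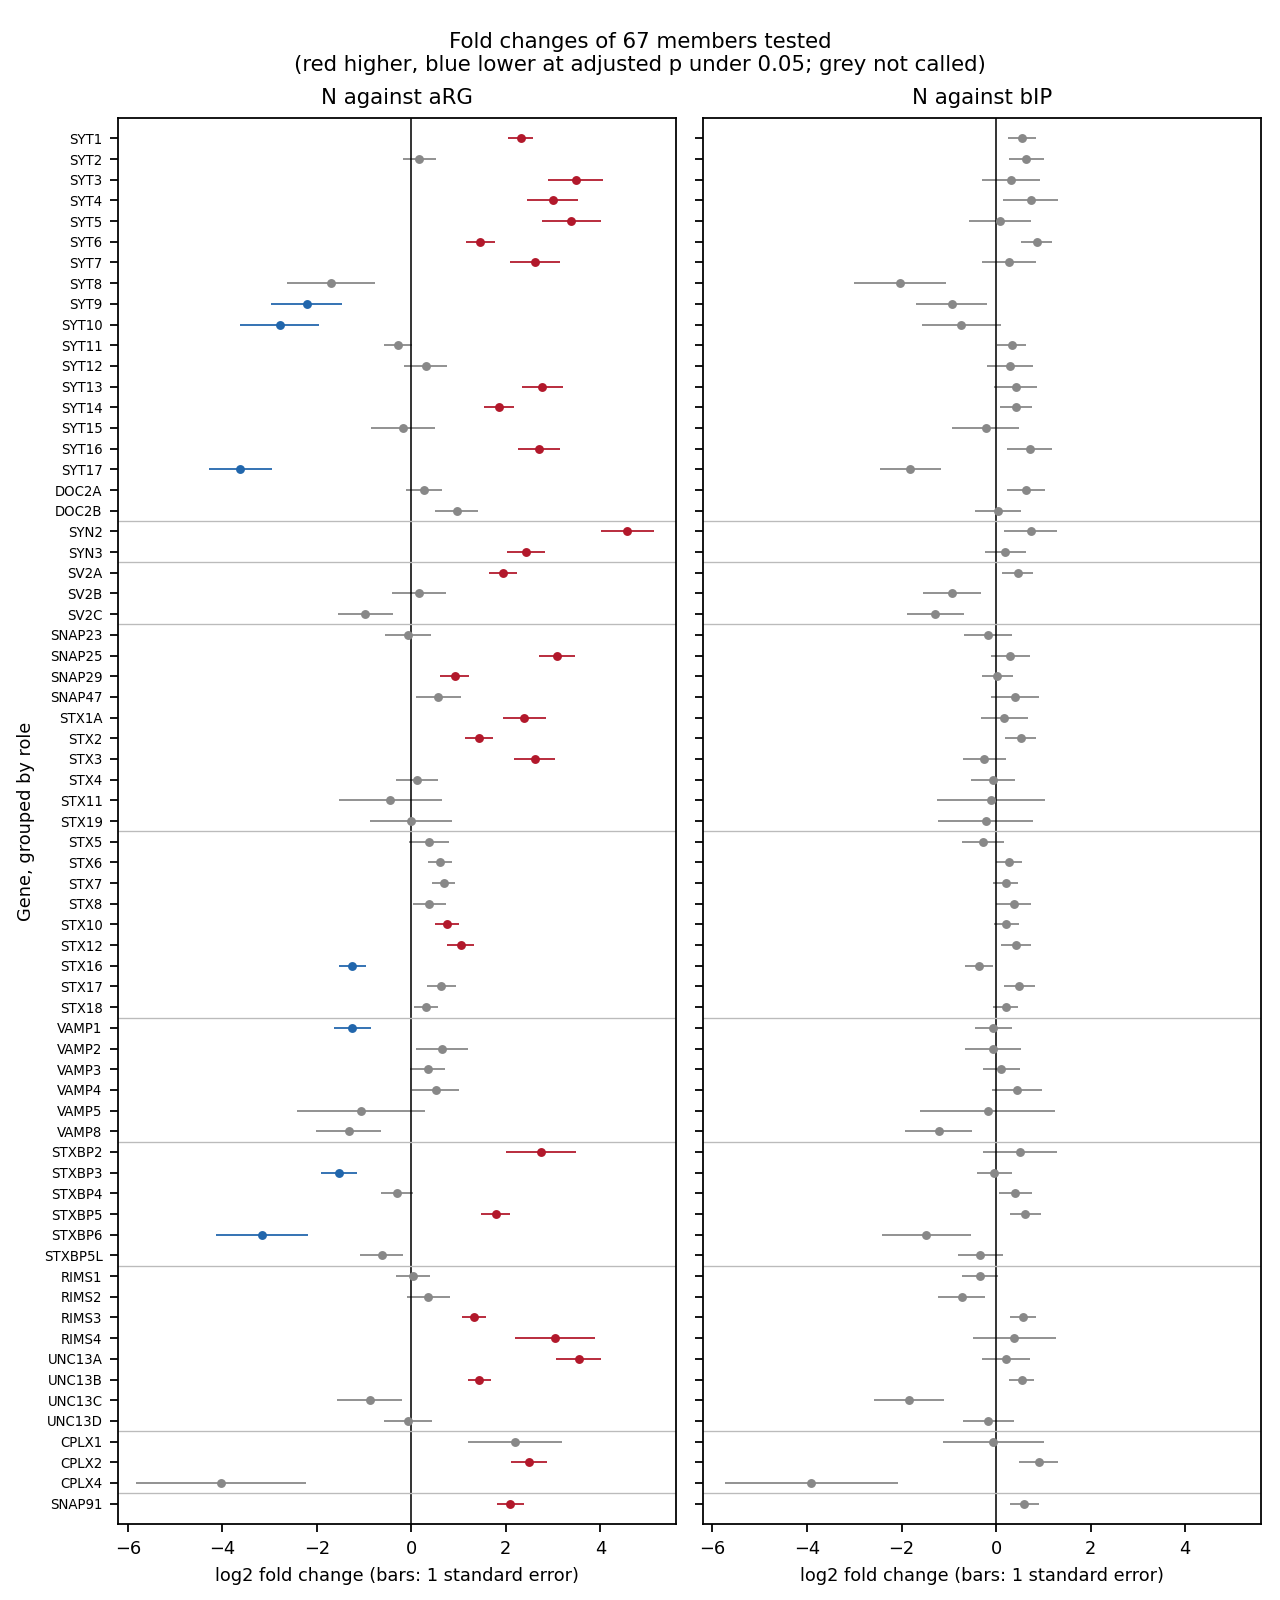
Log2 fold change of 67 tested members (rows, grouped by role) in N against aRG (left) and N against bIP (right), with bars of 1 standard error; red is called higher, blue called lower and grey not called at an edgeR adjusted p of 0.05. In N against aRG 27 points are red and 7 blue, from SYN2 at 4.57 to SYT17 at -3.62 among the called genes, and in N against bIP all are grey.

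Of the 9 SNAREs of the Golgi, endosomes and endoplasmic reticulum, 0 were higher and 1 lower in bIP against aRG, near the 8.47% and 9.98% of all genes. The lower one was STX16, a syntaxin of the trans-Golgi network, which measured 282, 229.8, 279.9 and 272 CPM in aRG, 283, 189, 393 and 249 CPM in bRG, 154, 134 and 144 CPM in bIP and 123 and 101 CPM in N. Every radial glia library was above every bIP library and these above both N libraries. The log2 fold change was -1.25 in N against aRG (SE 0.286, edgeR adjusted p = 0.00405), lost without the unnumbered neuron library (0.0873), and -0.89 in bIP against aRG (edgeR adjusted p = 0.0146), lost without bIP library 2 (0.0743) or 3 (0.0518). STX10, of the trans-Golgi network, measured 92.7, 72.9, 80.9 and 69.9 CPM in aRG, 84.4, 71.6, 68.5 and 73.2 CPM in bRG, 84.8, 143 and 114 CPM in bIP and 115 and 150.3 CPM in N. STX12, of recycling endosomes, measured 61.4, 67.7, 55.4 and 78.5 CPM in aRG, 84.9, 63.1, 148 and 83.3 CPM in bRG, 85.7, 104 and 112 CPM in bIP and 125 and 146 CPM in N. They were higher in N against aRG by 0.75 and 1.04 on the log2 scale, at edgeR adjusted p of 0.0456 and 0.0172. Both calls were lost without either N library. The STX10 call was also lost without aRG library 2 (0.0982), 3 (0.0778) or 4 (0.117), all edgeR adjusted p. The other 6 genes of the group were called in no comparison.

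SNAP91, which the symbol rule brings in, is no SNARE but a clathrin adaptor that retrieves vesicle membrane. It measured 51.5, 46.4, 58.7 and 58.1 CPM in aRG, 50.6, 41.8, 67.1 and 75.4 CPM in bRG, 133, 127 and 195 CPM in bIP and 178 and 281 CPM in N (N against aRG 2.10, SE 0.282, edgeR adjusted p = 2.96e-05). In bIP the same gene had a log2 fold change of 1.50 against aRG (edgeR adjusted p = 0.000369), and radial glia did not overlap the other libraries.

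In bRG against aRG 0 were higher and 0 lower, against 0.0298% and 1.23% of all genes, and 3 had an unadjusted p under 0.05 in edgeR. DESeq2 called 0 as well, with 5 at an unadjusted p under 0.05. The 3 were SYN2 (log2 fold change 1.13, edgeR adjusted p = 0.465), SNAP23 (0.99, adjusted p = 0.399) and STX12 (0.53, adjusted p = 0.523). For all 3 the highest bRG value was that of library 3, at 8.49, 70.5 and 148 CPM. Without that library, 1 member had an unadjusted p under 0.05 in edgeR. The 95% interval of the log2 difference was -0.35 to 0.60 for SYT1 and -0.21 to 1.17 for SNAP25, each with an upper bound under the change in N against aRG, while for SYN2 the interval reached from 0.10 to 2.16. Choroid plexus markers (TTR, FOLR1, CLIC6 and KCNJ13) summed to 1587 to 7731 CPM in aRG and 204 to 1232 in bRG. Most of the sum was TTR, at 1541 to 7626 CPM in aRG and 170 to 1177 in bRG. KCNJ13 was not called among the populations (edgeR adjusted p = 0.536). The part of these markers in this comparison was not tested.

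Some members differed within radial glia by library number, in shares near those of all genes. For 9 members (13%) libraries 1 and 2 lay above libraries 3 and 4 in both aRG and bRG, against 7.5% of all genes tested, and for 6 (8.7%) they lay below, against 10.8%. Among the 9 were CPLX1, DOC2B, RIMS3, RIMS4, STX1A, STX4, SYT7 and SYT17. DOC2B, a calcium sensor of spontaneous release, had 187, 231, 104 and 92.6 CPM in aRG and 234, 270.2, 69.6 and 125 CPM in bRG. Total counts were 5464721 to 7153514 in libraries 1 and 2 and 9761818 to 10551184 in libraries 3 and 4, and the labels do not say what the number stands for. DOC2B held fewer reads in the gorilla-build table than on hg38, and its values were chosen after they were seen.

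Between N and bIP, 0 members were called higher and 0 lower, against 0% and 0.113% of all genes, with 6 at an unadjusted p under 0.05 in edgeR (2 higher and 4 lower) and 0 called by DESeq2. The largest of the higher ones was CPLX2 (log2 fold change 0.90, 95% interval 0.04 to 1.75), followed by SYT6 (0.86, 95% interval 0.15 to 1.56). The lower ones were SYT17 (-1.81, 95% interval -3.16 to -0.47), UNC13C (-1.85, -3.41 to -0.29), SV2C (-1.29, -2.56 to -0.02) and CPLX4, which had almost no reads. UNC13C, a priming factor known from the cerebellum, measured 18.4, 12.4 and 7.64 CPM in bIP and 1.59 and 5.41 CPM in N. For SYT1 the interval was -0.07 to 1.15 and for SNAP25 -0.56 to 1.16. Both intervals include equal levels and reach past a 2-fold difference. In place of 6, 13 members had an unadjusted p under 0.05 in an edgeR fit of only these 2 populations. Without bRG library 3, an alternative chosen after seeing the data, 14 had one. Neither alternative called a member, with 0 higher and 0 lower. Among the 69 members the mean was highest in N for 37, in bIP for 14, in bRG for 11 and in aRG for 7. The same shares were not counted over all genes, so these counts have no background beside them. In N against bIP, 41 members had a fold change above 0 and 28 below. All genes leaned the same way, with 9413 above and 7391 below, and the lean of the members was not tested.

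Other genes of the pathway were read from 3 lists. Of 30 genes of the active zone scaffold, RAB3 proteins and SNARE recycling, 14 were higher and 0 lower in bIP against aRG. In N against aRG, 14 were higher and 0 lower. Median log2 fold changes were 0.80 and 0.93, against -0.035 and -0.053 over all genes. Of all genes 8.47% were higher and 9.98% lower in bIP, and 10.4% and 9.37% in N. LIN7A, a presynaptic scaffold, measured 14.4 to 20.8 CPM in aRG, 15.0 to 30.8 in bRG, 104 to 147 in bIP and 193 and 245 in N (N against aRG 3.58, edgeR adjusted p = 2.32e-07). PCLO, the giant scaffold piccolo, measured 43.3 to 162 CPM in radial glia, 526 to 659 in bIP and 765 and 911 in N (3.05, edgeR adjusted p = 2.2e-05), and PPFIA4, a liprin, had a log2 fold change of 2.55 (edgeR adjusted p = 2.45e-05).

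Of 24 genes of vesicle endocytosis, 6 were higher and 2 lower in bIP against aRG, and 10 and 2 in N against aRG (medians 0.62 and 0.80), against 8.47% higher and 9.98% lower of all genes in bIP and 10.4% and 9.37% in N. The lower counts thus lie near the background. AAK1, a kinase of clathrin adaptors, was at 137 to 244 CPM in radial glia, 515 to 600.5 in bIP and 559 and 711 in N (N against aRG 1.87, edgeR adjusted p = 5.95e-05). SYNJ1, a phosphatase that takes part in clathrin uncoating, and SH3GL2 (endophilin) were higher by 1.89 and 2.50 on the log2 scale (edgeR adjusted p of 0.000274 and 0.000189). The 2 lower genes, the endocytic adaptors STON1 and STON2, had log2 fold changes of -2.63 and -2.24 in N against aRG (edgeR adjusted p of 0.00206 and 0.000481). The STON1 call in N was lost without N library 1 (0.0529).

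Of 20 tested genes of the vesicle membrane and transmitter loading, 6 were higher and 3 lower in bIP against aRG. In N against aRG, 6 were higher and 1 lower. Median log2 fold changes were 0.84 and 0.70, against -0.035 and -0.053 over all genes. Of all genes 8.47% were higher and 9.98% lower in bIP, and 10.4% and 9.37% in N. For 20 genes the lower counts thus lie near the background. The lower ones in bIP were SLC17A8 (-2.45), SYPL1 (-2.55) and SCAMP2 (-0.89), with edgeR adjusted p of 0.00389, 0.00318 and 0.0241, and SLC17A8 was the 1 in N (edgeR adjusted p = 0.0118). That N call was lost without N library 1 (0.147) or the unnumbered neuron library (0.0509). SLC17A7, the glutamate transporter of cortical vesicles, measured 14.9 to 31.3 CPM in aRG, 23.5 to 71.0 in bRG, 145 to 177 in bIP and 236 and 304 in N (N against aRG 3.67, edgeR adjusted p = 4.83e-06). ATP6V0A1, a subunit of the proton pump that energises loading, and SCAMP5 were higher by 1.61 and 2.62 on the log2 scale (edgeR adjusted p of 4.13e-05 and 0.000134). SYP (synaptophysin), an X-linked gene with no row in the hg38 table used here, was read from the table on the gorilla build gorGor6. There it measured 44.9 to 73.1 CPM in aRG, 30.7 to 87.8 in bRG, 253 to 342 in bIP and 256 and 410.3 in N (bIP against aRG 2.32, edgeR adjusted p = 0.000102). SYN1, the remaining synapsin, was at 1.31 to 4.33 CPM in aRG and 15.9 and 18.1 in N in that table, higher against bRG (edgeR adjusted p = 0.0104) and not called against aRG (0.0751).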

How the data were processed

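Smart-seq2 libraries without molecular identifiers were amplified over 12 to 17 PCR cycles, per the labels' protocols. The authors deposited raw read counts per gene symbol, not normalized, in 2 tables, of which one is on hg38 and the other is named for gorGor6. STAR and hg38 appear in the submitters' processing notes, per the labels. What annotation, counter, strand setting and sort antibodies were used is not given in the sources used here. A neuron column whose number matches no neuron label was treated as an unnumbered neuron library.

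The 70 genes, their roles, the pathway lists and the tests were chosen with earlier results of these data known. On the hg38 counts, edgeR 4.0.16 in R 4.3.3 (TMM scaling, quasi-likelihood F-test) fitted all 13 libraries with a mean per population to the 16804 genes passing filterByExpr (minimum count 10). A gene was called at a Benjamini-Hochberg adjusted p under 0.05 over all genes tested. The standard error is the fold change over the root of F, and 95% intervals use the t quantile. Since separate cultures are not stated, p-values rest only on how far libraries of a label differ, possibly for technical reasons, and depth limits genes of few reads. Pairs of libraries differed beyond counting noise (chi-square per degree of freedom of 10.6 to 92.4), so none was counted as a duplicate. The scripts were tested on simulated data.

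Values in every library were given, within each role, for up to 3 members with the smallest p among the 4 populations and a mean log2 CPM of at least 2, for the 3 members called lower with the smallest p, and for most members of 3 pairs of relatives, with others by range. Some members stand in the counts but are not reported here by name or drawn. From each pathway list the 3 genes with the smallest p were named, and the lower ones after their values were seen. Alternatives were DESeq2 1.42.0 and its size factors, no low-count filter, the gorGor6 counts, a block for the replicate number, fitting a pair of populations alone, and removal of each library. A row without a gene name (0.0035% to 0.0077% of the gorGor6 counts) was left out. All 70 symbols matched the gorilla RefSeq table (assembly NHGRI_mGorGor1-v2.1_pri), which was used only for overlaps between genes.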

Additional observations from a re-analysis of the deposited data

Results flagged for a closer look

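In 60 groups of 4 libraries (the 30 displayed members in aRG and in bRG), 3 held a library far from the other 3 by Dixon's test, and chance flags about 1 group in 20. SV2A measured 165 CPM in bRG library 1, against 116 to 123 in the other bRG libraries. UNC13A measured 47.4 CPM in aRG library 2, against 10.7 to 14.5 in the other aRG libraries. VAMP3 measured 110.1 CPM in bRG library 3, against 37.9 to 41.7 in the others.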

How the results depend on the processing

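Counts of members called stayed within 1.5 times their main value in every alternative run. Over the alternatives that left out a library, 23 to 27 members were called in bIP against aRG (36 without bRG library 3, an alternative chosen after seeing the data), 19 to 27 in bIP against bRG, 23 to 34 in N against bRG and 24 to 32 in N against aRG (37 without bRG library 3). Of the calls, 21 of 30, 17 of 26, 20 of 30 and 22 of 35 held without each library in turn. On the gorGor6 counts 23, 21, 27 and 30 were called, with 1 lower call in place of 5 in bIP against bRG.

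The labels do not say what the replicate number stands for, and it was not taken to pair libraries: of 13 same-numbered pairs 7 correlated over 0.1 in their deviations from the population means, and 6 of 12 numbered libraries correlated best with their own number. With the replicate number as a block, which drops the unnumbered neuron library, 29, 26, 23 and 26 were called, and the SLC17A8 call in N against aRG was lost (edgeR adjusted p = 0.143). In N against bIP, where nothing was called, SNAP25 went from 0.30 to -0.28 and VAMP2 from -0.06 to 0.27 with the block and without that neuron library. Leaving out that library with no block gave -0.22 for SNAP25 and 0.33 for VAMP2. Leaving out single libraries, SNAP25 ranged from -0.22 to 0.69, SYT4 from -0.011 to 1.22 and VAMP2 from -0.58 to 0.33. The cause was not tested. Another scaling moved the median gene by between -0.057 and 0.021. Few reads of some members and the number of N libraries (2) limit the precision.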

Other observations

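REST, the repressor that binds regulatory sites of many neuronal genes in other cells, measured 96.2 to 193 CPM in aRG and 108 to 239.5 in bRG, against 24.8 to 34.5 in bIP and 28.5 and 40.7 in N. The lowest radial glia library was above the highest bIP or N library, while aRG overlapped bRG and bIP overlapped N. Its log2 fold change was -2.16 in bIP against aRG (SE 0.337, edgeR adjusted p = 0.000142) and -1.94 in N against aRG (SE 0.391, edgeR adjusted p = 0.00145).

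A pair of pathway genes had their highest levels in bIP. SLC17A6, another vesicular glutamate transporter, measured 33.3, 44.1 and 34.9 CPM in bIP, 9.80 and 12.1 in N and 2.89 to 13.7 in radial glia (bIP against aRG 2.24, SE 0.470, edgeR adjusted p = 0.00208). RPH3A (rabphilin), a RAB3 effector, measured 25.2, 25.0 and 18.3 CPM in bIP, 5.64 and 5.04 in N and 2.83 to 11.6 in radial glia (bIP against aRG 1.88, SE 0.468, edgeR adjusted p = 0.00764). These genes were chosen after their values were seen. In N against bIP neither was called (-1.77 and -2.10, edgeR adjusted p of 0.484 and 0.361). In a fit of only those 2 populations both were at 0.0402. DESeq2 gave 0.0207 for RPH3A. The summed Cajal-Retzius markers were at 1131 to 3264 CPM in the same bIP libraries and at 60.3 to 84.3 in N, and their part in these levels was not tested.

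In the gorGor6 table the members held a median of 1.67 times their hg38 counts, against 1.68 over all genes tested. Of the 69 with reads, 4 held fewer reads there: DOC2B (0.231 times), STX8, UNC13B and STX17. UNC13B kept its calls there.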
